A study of Caenorhabditis elegans with 14 samples.

Results

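The innate immune response genes described here are the genes whose deposited Gene Ontology annotation holds the exact term "innate immune response" in the table of either strain, after those named for 30 large families (lectins, lysozymes, saposin-like proteins, antimicrobial peptides, detoxification enzymes, collagens and others) were set aside. They number 180 of the 12483 genes listed in the tables. Of these, 170 were listed for both strains, 5 for polyQ35-YFP worms only and 5 for wild-type worms only, so that 175 could be followed in each strain. The other 57 of the 237 genes with the term carried a family name and were left out. Most of the 180 are little studied: 113 are named only by their clone in the files, 17 of which have another name in the gene table used (*F35E12.5* is *irg-5*, *T24B8.5* is *sysm-1*, *F08G5.6* is *irg-4*, *ZK6.11* is *irg-8*, *C29F9.3* is *pals-23* and *C10C5.2* is *fbxc-58*). The largest numbers of members lay on chromosomes V (55) and IV (43), followed by II (29), X (23), III (17) and I (13).

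The study asked how knockdown of *anc-1*, which encodes a giant nesprin of the LINC complex that links the nucleus to the cytoskeleton, changes gene expression in the nematode *Caenorhabditis elegans*. The 4 groups were polyQ35-YFP worms treated with *anc-1* RNAi (n = 4) and their EV controls (n = 4), and wild-type N2 worms treated with *anc-1* RNAi (n = 3) and their EV controls (n = 3). The polyQ35-YFP strain (AM140) carries a transgene of 35 glutamines fused to YFP that the *unc-54* promoter drives in body wall muscle. All worms were hermaphrodites fed from hatching on HT115 bacteria that carried either the *anc-1* RNAi construct or the empty vector (EV, called untreated), and were harvested whole on day 6 of adulthood for CEL-Seq2, which sequences the 3′ ends of messenger RNAs. The repeats are numbered, each held both treatments, and the study calls them independent. Whether a repeat was a separate culture is not given in the sources used here, so that p-values measure the spread between these samples, whatever its origin.

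As background, worms have no antibody response and no circulating phagocytes, and meet microbes mainly with their gut and epidermis. A conserved cascade of kinases, NSY-1, SEK-1 and the p38 MAP kinase PMK-1, acts in the gut to raise the expression of secreted and membrane-associated effectors, while a TGF-beta pathway and the insulin pathway also set resistance to bacteria. Many of the genes annotated to the response were placed there because infection raises their RNA, and several of them encode proteins with a CUB-like domain. The food bacteria of the worm are themselves a mild microbial exposure in every one of the 4 groups.

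The libraries held 5718349 to 8414290 reads on listed genes in polyQ35-YFP *anc-1* RNAi samples and 5905938 to 11563506 in their EV samples, and 4934531 to 7227357 in wild-type *anc-1* RNAi samples and 5694086 to 10513485 in their EV samples. The targeted gene followed the labels: *anc-1* had 24.8 to 50.8 normalized reads in polyQ35-YFP worms under RNAi, against 295 to 409 in EV worms (log2 fold change -3.24, SE 0.25, adjusted p = 4.80e-05), and 39.6 to 68.4 in wild-type worms under RNAi, against 291 to 349 in EV worms (log2 fold change -2.64, SE 0.19, adjusted p = 2.99e-07). Values are reads divided by the size factor of each library, a scale set separately for each strain, and fold changes are differences of group means of log2(normalized reads + 1). A gene is called changed where its limma p-value, adjusted over all genes of the table, was under 0.05. Among polyQ35-YFP samples the EV sample of repeat 4 stood apart, at 8.90 on the first principal component of the members (43.8% of their variance), against -1.39 to 4.82 for the other EV samples. Because whole worms were extracted, fewer cells of a type and less RNA per cell cannot be told apart.

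Under *anc-1* knockdown the RNA of many innate immune genes was higher, with more of them passing the test in wild-type worms. In polyQ35-YFP worms 5 of 175 members rose (2.86%, where 0.772% of all 12173 genes rose) and 2 fell (1.14%, against 1.47%). Their median log2 fold change was 0.30, against 0.03 over all genes, and 129 of the 175 (73.7%) had a value above 0, against 53.96% of all genes. Of 175 members in wild-type worms, 39 rose (22.3%) and 4 fell (2.29%), where 7.50% of all 12061 genes rose and 6.13% fell. The median there was 0.47, against 0.00 over all genes, with 137 (78.3%) above 0, against 50.4% of all genes. Medians varied with level. At means under 10, 10 to 100 and 100 or more reads, wild-type members had 0.44, 0.55 and 0.30, against 0.23, 0.10 and -0.07 for all genes. For polyQ35-YFP members these were 0.34, 0.34 and 0.22, against 0.09, 0.07 and 0.01. The values of the RNAi and EV groups did not overlap for 11 higher and 5 lower polyQ35-YFP members, against 3.39% and 5.94% of all genes. For wild-type worms this held for 67 members that were higher and 12 that were lower under RNAi, where 15.8% of all genes fell on each side.

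The shift was visible in single samples. Set against the EV mean of their strain, the median member of polyQ35-YFP worms stood at 0.37, 0.36, 0.34 and -0.00 log2 units in the 4 *anc-1* RNAi samples, and at 0.36, -0.05, 0.08 and -0.31 in the EV samples. These groups overlapped: EV repeat 1 was as high as the highest RNAi samples, and RNAi repeat 4 was among the low ones. In wild-type worms the median member stood at 0.53, 0.35 and 0.55 in the RNAi samples and at -0.04, -0.05 and 0.14 in the EV samples, with no overlap. Over all genes the median of each sample stayed between -0.05 and 0.04. Within repeats the median difference of the members, RNAi minus EV, was 0.03, 0.40, 0.27 and 0.30 in polyQ35-YFP repeats 1 to 4. It was 0.55, 0.34 and 0.44 in wild-type repeats 1 to 3. Over all genes these medians were 0.043, 0.0019, 0.011 and -0.0096 in the polyQ35-YFP repeats and -0.0079, 0.0028 and 0.0050 in the wild-type ones. The number of members above 0 was 93, 133, 113 and 122 of 175 in those polyQ35-YFP repeats, and 134, 126 and 125 of 175 in the wild-type ones. Of all genes, 53.9%, 50.3%, 50.8% and 48.7% were above 0 in the polyQ35-YFP repeats, and 49.2%, 50.3% and 50.4% in the wild-type ones. In polyQ35-YFP repeat 1 the members (53.1% above 0) thus showed no shift beyond that of all genes.

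**Figure D1:**
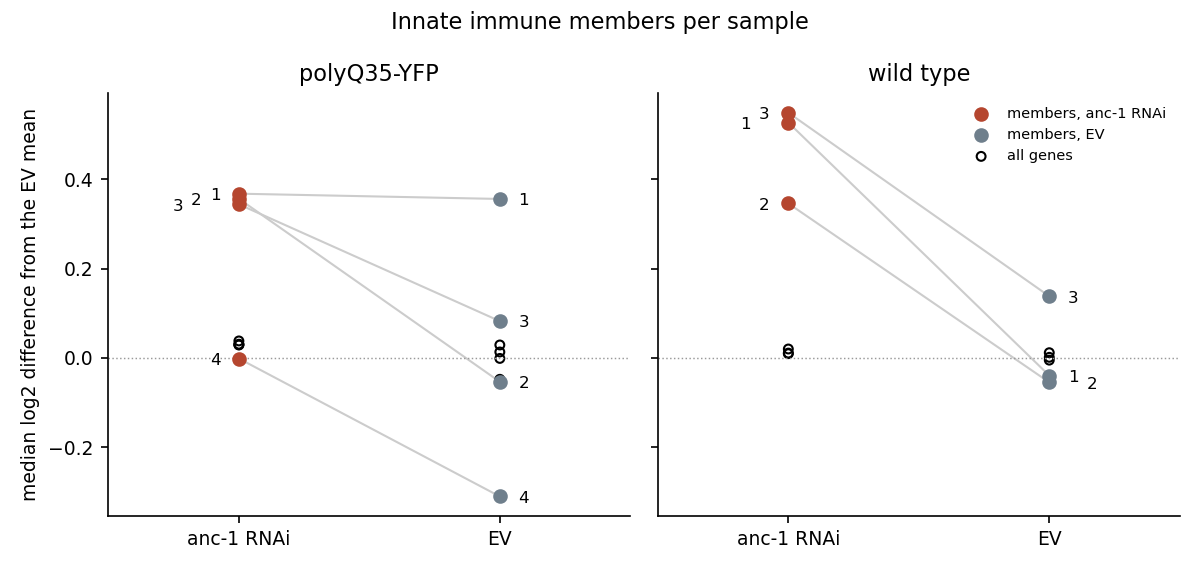
Median log2 difference of the innate immune members from the EV mean of their strain (vertical axis, log2 units) in each *anc-1* RNAi sample (red) and EV sample (grey), with repeat numbers and grey lines joining the samples of a repeat; open circles are the medians over all genes. In polyQ35-YFP worms the RNAi samples, at -0.00 to 0.37, overlap the EV samples, at -0.31 to 0.36, while in wild-type worms the RNAi samples lie at 0.35 to 0.55 and the EV samples at -0.05 to 0.14.

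The wild-type calls included *T24B8.5* and *F35E12.5*, effectors that serve as readouts of the p38 pathway. Of the infection-response list that holds both, *C32H11.4* and *F53A9.8* fell in wild-type worms, and *F08G5.6* and *K08D8.5* were not called. *T24B8.5* (*sysm-1*, chromosome II, 9082682 to 9083142), which encodes a small ShK-like toxin peptide, had 272, 138 and 165 normalized reads in the 3 wild-type *anc-1* RNAi samples, against 59.7, 45.5 and 94.1 in the 3 EV samples (log2 fold change 1.52, SE 0.26, adjusted p = 6.30e-04). *F35E12.5* (*irg-5*, chromosome V, 13737007 to 13738471), an infection response gene with a CUB-like domain, had 15.9, 17.8 and 22.97 against 1.15, 6.67 and 7.48 (log2 fold change 1.92, SE 0.51, adjusted p = 0.0163). In both genes each RNAi sample was above each EV sample, although *F35E12.5* was measured by few reads. *F20G2.5* (chromosome V, 13771508 to 13773700), annotated to membrane rafts and to defence against Gram-negative bacteria, showed the highest called fold change of any member, with 60.2, 55.04 and 111 normalized reads in RNAi worms against 28.7, 6.67 and 16.0 in EV worms (log2 fold change 2.21, SE 0.40, adjusted p = 0.00101). *B0024.4* (chromosome V, 10297399 to 10298982), a raft-annotated gene named only by its clone, had 46.6, 24.9 and 94.4 against 8.03, 9.70 and 25.7 (log2 fold change 1.84, SE 0.45, adjusted p = 0.00968). Its groups touched, since RNAi repeat 2 lay just under EV repeat 3.

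Further wild-type risers covered a range of levels. *C08E8.4* (chromosome V, 18371846 to 18373531), annotated with deaminase activity, had 1663, 1464 and 1825 normalized reads in wild-type *anc-1* RNAi worms, against 656, 575 and 773 in EV worms (log2 fold change 1.31, SE 0.12, adjusted p = 3.65e-06). The bZIP transcription factor gene *zip-10* (chromosome V, 11650078 to 11650798) had 372, 339 and 301 against 132, 118 and 173 (log2 fold change 1.27, SE 0.16, adjusted p = 3.99e-05). For *valv-1* (chromosome IV, 7444634 to 7445365), a gene of the valve between pharynx and gut, the values were 135, 122 and 159.5 against 50.5, 43.6 and 74.8 (log2 fold change 1.31, SE 0.21, adjusted p = 4.09e-04). None of these 3 genes had overlapping groups. The gene models of *zip-10* and *valv-1* overlap *skp-1* and *unc-82* on the opposite strand, and whether reads were counted by strand is not stated in the sources used here, so their values are uncertain. *ZK1055.7* (chromosome V, 6602737 to 6605375) had 232, 191 and 234.8 against 78.0, 101 and 104.8 (log2 fold change 1.21, SE 0.17, adjusted p = 9.87e-05). *C10C5.2* (*fbxc-58*, chromosome IV, 9371508 to 9373636), an F-box gene, had 106, 57.7 and 84.2 against 40.2, 18.2 and 41.7 (log2 fold change 1.33, SE 0.30, adjusted p = 0.00651). Both genes separated the groups.

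The remaining members among the 12 highest wild-type calls were read at low levels. *F56D2.5* (chromosome III, 5578423 to 5581220), annotated with ubiquitin protein ligase activity, had 15.9, 14.2 and 15.3 normalized reads under RNAi, against 4.59, 6.67 and 3.21 in EV worms (log2 fold change 1.51, SE 0.42, adjusted p = 0.0233). *drd-50* (chromosome IV, 4117788 to 4119179), named for lower expression under dietary restriction, had 46.6, 27.5 and 24.2 against 6.88, 9.70 and 17.1 (log2 fold change 1.50, SE 0.38, adjusted p = 0.0122). *dct-17* (chromosome V, 13727761 to 13730776), named as a gene controlled by DAF-16/FOXO, had 27.3, 22.2 and 33.2 against 9.18, 15.2 and 10.7 (log2 fold change 1.18, SE 0.33, adjusted p = 0.0251). In all 3 genes every RNAi sample exceeded every EV sample. Of the 12 highest calls, *F20G2.5*, *T24B8.5*, *C10C5.2*, *valv-1*, *C08E8.4*, *zip-10* and *ZK1055.7* passed the test whichever single sample was left out. *B0024.4* missed it without RNAi repeat 3 or EV repeat 2 (adjusted p = 0.0722 and 0.0512), *F35E12.5* without RNAi repeat 3 or EV repeat 1 (0.0679 and 0.0572), and *drd-50* without RNAi repeat 1 or EV repeat 1 (0.0797 and 0.0534). *dct-17* missed it in 4 of 6 omissions (adjusted p up to 0.0991, without RNAi repeat 3) and *F56D2.5* in 5 of 6 (adjusted p up to 0.0755, without RNAi repeat 1).

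**Figure D2:**
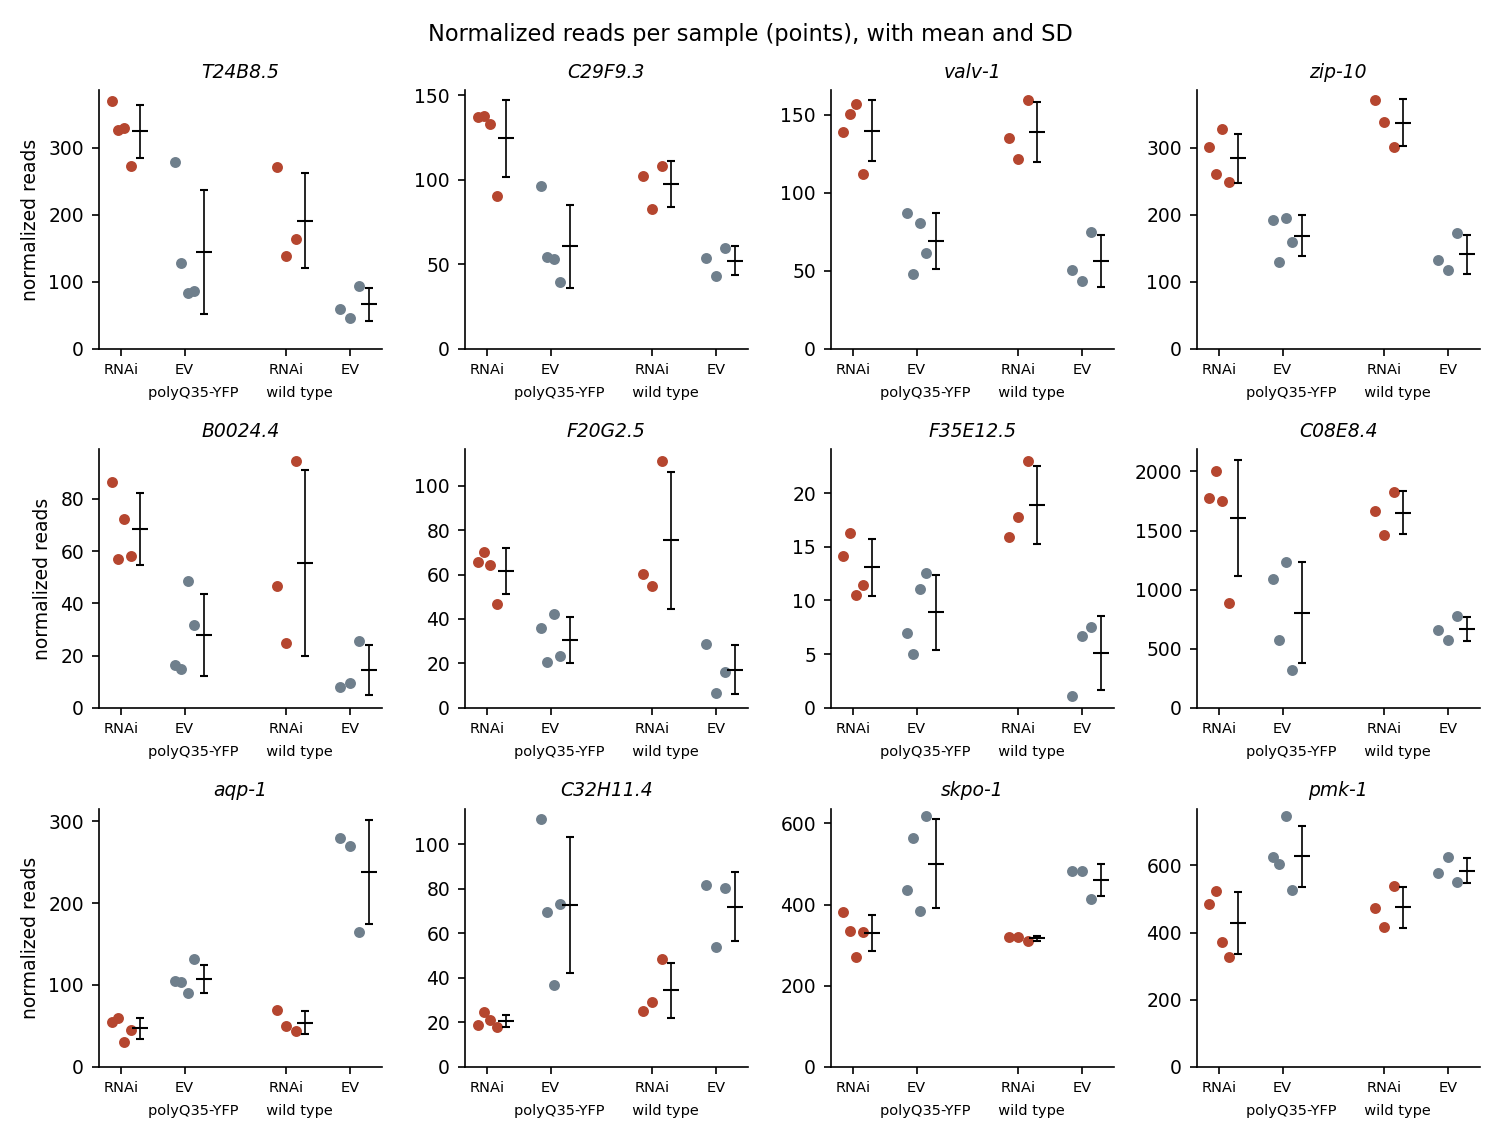
Normalized reads (vertical axes, from 0) of 12 genes in each sample, with the group mean and SD beside the points; *anc-1* RNAi samples are red and EV samples grey, polyQ35-YFP on the left of each panel and wild type on the right. *T24B8.5* reached 138 to 272 in wild-type RNAi worms against 45.5 to 94.1 in EV worms, *aqp-1* 43.4 to 69.3 against 165 to 279.9, and *pmk-1* 416 to 539 against 551 to 624.

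The other 27 members that rose in wild-type worms had log2 fold changes of 0.36 to 1.15. They include *ZK6.11* (*irg-8*), an infection response gene, at 535 to 713 normalized reads under RNAi against 282 to 327 in EV worms (log2 fold change 0.95, adjusted p = 9.92e-05), the cadmium responsive gene *cdr-4* at 247 to 328 against 145 to 172 (0.89, adjusted p = 5.62e-04), and the clathrin adaptor subunit gene *apm-1* at 469 to 609 against 352 to 422 (0.54, adjusted p = 0.00954). In each of these 3 the groups stayed apart. *F54E2.1* (chromosome V, 2810427 to 2811985), a raft-annotated clone-named gene among the lowest wild-type risers, had 147, 176 and 190.2 against 110.1, 117 and 115 (log2 fold change 0.57, SE 0.16, adjusted p = 0.0238). Its groups were apart, but the call was lost in 5 of 6 omissions (adjusted p up to 0.0956, without RNAi repeat 3). *C17H12.8*, a CUB-like gene that is among the 5 members with the most reads in wild-type EV worms, had 1146, 1098 and 1583 against 639, 698 and 902 (log2 fold change 0.77, SE 0.15, adjusted p = 0.00156). *K08D8.4* had 67.1, 65.7 and 111 against 20.6, 48.5 and 46.0 (log2 fold change 1.11, SE 0.30, adjusted p = 0.0195), and *hpo-6*, named for the hypersensitivity of its mutants to a pore-forming toxin, had 136, 122 and 168 against 80.3, 79.4 and 92.0 (log2 fold change 0.74, SE 0.18, adjusted p = 0.00891). All 3 genes were higher in each RNAi sample than in any EV sample. *K08D8.4* missed the test without RNAi repeat 3 or EV repeat 1 (adjusted p = 0.11 and 0.0913), and *hpo-6* without RNAi repeat 3 (0.052). Calls went with level: 21 of 55 members with a mean of 100 or more reads rose, 17 of 89 with 10 to 100 and 1 of 31 with fewer than 10, where 10.03%, 7.95% and 1.75% of all genes at those levels rose.

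Only 4 members fell in wild-type worms. The aquaglyceroporin gene *aqp-1* (chromosome II, 7235834 to 7238349), a water and glycerol channel, had 69.3, 49.7 and 43.4 normalized reads in *anc-1* RNAi worms, against 279.9, 269.8 and 165 in EV worms (log2 fold change -2.10, SE 0.22, adjusted p = 8.65e-06). The gene overlaps *ctsa-3.1* on the opposite strand, so its value is uncertain in the same way. *F54B11.11* (chromosome X, 13578783 to 13581728), a raft-annotated gene, had 3.41, 7.10 and 2.55 against 24.1, 16.4 and 13.9 (log2 fold change -1.89, SE 0.45, adjusted p = 0.00863). *C32H11.4* (chromosome IV, 12921288 to 12923292), a clone-named member of the infection-response list, had 25.002, 29.3 and 48.5 against 81.5, 53.95 and 80.2 (log2 fold change -1.08, SE 0.27, adjusted p = 0.0118). In all 3 the highest RNAi sample was below the lowest EV sample. *skpo-1* (chromosome II, 8399843 to 8404850), which encodes a peroxidase, had 319, 320.5 and 310.1 against 482, 483 and 414 (log2 fold change -0.53, SE 0.12, adjusted p = 0.00629), again with no overlap. The calls of *aqp-1* and *skpo-1* held in each omission of a sample, that of *F54B11.11* was lost without EV repeat 1 (adjusted p = 0.0587), and that of *C32H11.4* without RNAi repeat 1, EV repeat 1 or EV repeat 3 (0.051, 0.0581 and 0.0508). Without EV repeat 1 the number of members that fell was 2.

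The 7 members called in polyQ35-YFP worms were all called in wild-type worms too, in the same direction (up in both: 0.672% of the 11751 genes listed for both strains, down in both: 1.27%). *T24B8.5* had 369, 328, 330.4 and 273 normalized reads in the 4 polyQ35-YFP *anc-1* RNAi samples, against 279, 129, 84.1 and 86.3 in the 4 EV samples (log2 fold change 1.34, SE 0.30, adjusted p = 0.0370). Its groups overlapped at 1 sample, EV repeat 1. *B0024.4* had 86.5, 57.1, 72.4 and 58.1 normalized reads in RNAi worms, against 16.2, 15.05, 48.7 and 31.9 in EV worms (log2 fold change 1.40, SE 0.34, adjusted p = 0.0496). *C29F9.3* (*pals-23*, chromosome III, 124778 to 126419), a gene of the pals family under its clone name, had 137, 138, 133 and 90.4 against 96.2, 54.5, 53.1 and 39.4 (log2 fold change 1.08, SE 0.26, adjusted p = 0.0479), and in wild-type worms 102, 82.6 and 108 against 53.9, 43.0 and 59.9 (log2 fold change 0.89, SE 0.21, adjusted p = 0.00705). RNAi repeat 4 was the low sample of *C29F9.3* and lay under EV repeat 1, whereas the groups of *B0024.4* did not overlap. For *valv-1* the values were 139, 150.4, 157 and 112 against 86.9, 47.6, 80.8 and 61.2 (log2 fold change 1.03, SE 0.22, adjusted p = 0.0269). *zip-10* had 301, 261, 328 and 248 against 192, 129, 195 and 159 (log2 fold change 0.76, SE 0.17, adjusted p = 0.0390). Neither *valv-1* nor *zip-10* overlapped between groups.

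Of the members that fell, *aqp-1* had 54.5, 59.4, 30.3 and 44.7 normalized reads in polyQ35-YFP RNAi worms, against 104.3, 104.1, 89.7 and 132 in EV worms (log2 fold change -1.20, SE 0.24, adjusted p = 0.0191). *C32H11.4* had 18.8, 24.5, 21.1 and 18.1 against 111, 69.6, 36.5 and 72.9 (log2 fold change -1.67, SE 0.31, adjusted p = 0.0147). All 4 RNAi samples of both genes were below all 4 EV samples. The polyQ35-YFP calls depended on single samples: none of the 7 was kept without RNAi repeat 1 or without EV repeat 2, when the adjusted p-values of these genes lay between 0.0528 and 0.167. Without RNAi repeat 2 or 3, 2 and 1 of the 7 were kept, without RNAi repeat 4 or EV repeat 3, 4 each, without EV repeat 1, 6, and without EV repeat 4, all 7. *T24B8.5*, *B0024.4* and *zip-10* each missed the test in 6 of 8 omissions, with adjusted p-values up to 0.121, 0.167 and 0.147. *C29F9.3* missed it in 5 (up to 0.151), *valv-1* in 4 (up to 0.0994), *aqp-1* in 3 (up to 0.0669) and *C32H11.4* in 2 (up to 0.0556).

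Comparing RNAi and EV within repeats changed the polyQ35-YFP counts. With the repeat as a block, 11 members rose and 6 fell, and the count up in both strains was 11. Calls grew over all 12173 genes as well, from 94 up and 179 down to 466 up and 524 down. The added risers were *C08E8.4*, *C17H12.6*, *clc-1*, *F20G2.5*, *F35E12.10* and *ZK1055.7*, and the added members that fell were *nsy-1*, *pmk-1*, *sid-3* and *skpo-1*. *C08E8.4*, for example, had 1774, 2007, 1752 and 889 normalized reads in polyQ35-YFP RNAi worms, against 1092, 576, 1232 and 323 in EV worms (log2 fold change 1.116), with an adjusted p = 0.138 without the block and 0.00139 with it. RNAi repeat 4 of this gene lay below EV repeats 1 and 3, but in every repeat RNAi was the higher sample. *F20G2.5* had 65.8, 69.9, 64.5 and 46.6 against 35.9, 20.7, 42.1 and 23.5 (log2 fold change 1.03, adjusted p = 0.0659, blocked 0.0149), and its groups did not overlap. *ZK1055.7* had 191, 209, 258 and 217 against 187, 95.9, 170.5 and 104.8 (0.70, adjusted p = 0.131, blocked 0.0269), also without overlap. *skpo-1* had 382, 335, 271 and 331 against 435, 563, 384 and 619 (-0.58, adjusted p = 0.107, blocked 0.0155), the highest RNAi sample lying just below the lowest EV sample. In wild-type worms the block gave 48 up and 5 down. The count over all wild-type genes with the block is not given here, so this gain is not set against all genes. When reads were scaled by library size in place of size factors, no polyQ35-YFP member rose and 2 fell, against 5 and 2, while the wild-type counts were 40 and 4. Over all genes that scaling gave 32 up and 94 down in polyQ35-YFP worms, and 906 up and 681 down in wild-type worms.

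**Figure D3:**
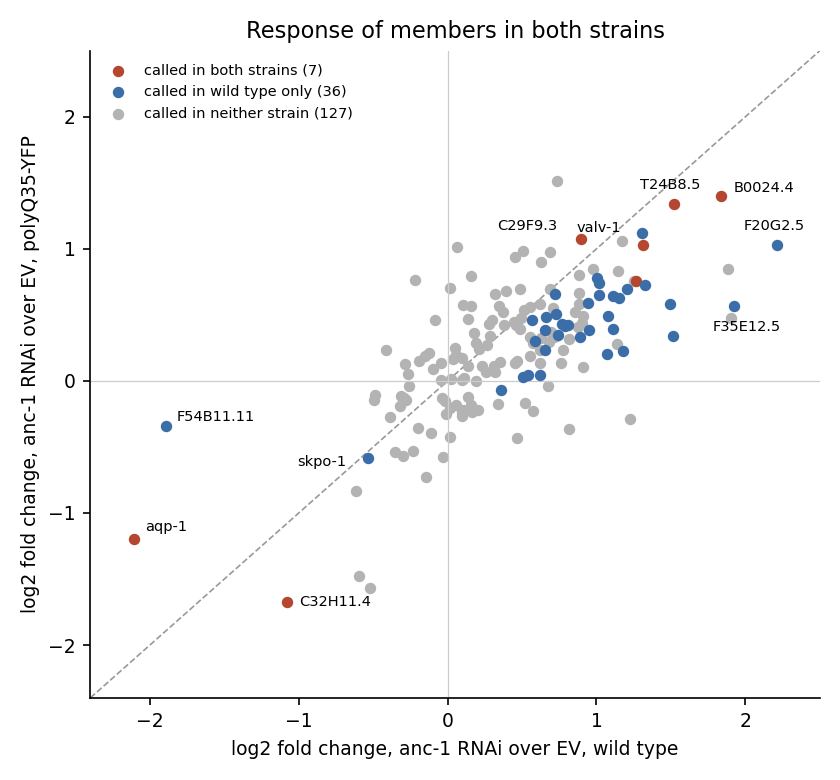
Log2 fold change of *anc-1* RNAi over EV in wild-type worms (horizontal axis) and polyQ35-YFP worms (vertical axis) for the 170 members listed for both; red members were called in both strains (7), blue ones in wild type only (36), grey ones in neither (127), and the dashed line marks equal values. Most points lie in the upper right and below the dashed line on that side, with *aqp-1* and *C32H11.4* at the lower left.

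Whether the response differed between the strains was tested directly, as the polyQ35-YFP log2 fold change minus the wild-type one, with both strains in 1 fit. No member was called: limma gave 0 of 170 at an adjusted p under 0.05 and 7 at an unadjusted p under 0.05 (3.46% of all 11751 genes were that low), and edgeR and DESeq2 gave 0 as well. Over all genes 1 was called (0.00851%). The difference was below 0 for 116 of the 170 members (68.2%, against 48.7% of all genes), with a median of -0.22 against 0.01. A value below 0 means a smaller rise, a larger fall or a fall in place of a rise in polyQ35-YFP worms. Of the 39 members that rose in wild-type worms, 38 had a difference below 0, and 38 had a log2 fold change above 0 in polyQ35-YFP worms. These last counts use the wild-type values that chose the 39 and are a description. Across the 170 members the log2 fold changes of the strains had r = 0.68, against 0.58 over all genes, and 139 had the same sign. The points share libraries and are not independent.

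The members with the lowest unadjusted p in that test did not pass it. *ZK228.4*, annotated with N-acetyltransferase activity, had 13.2, 24.5, 38.2 and 23.8 normalized reads in polyQ35-YFP RNAi worms, against 27.8, 31.3, 34.3 and 28.5 in EV worms, and 54.6, 31.1 and 25.5 in wild-type RNAi worms, against 18.4, 21.2 and 19.2 in EV worms (difference -1.18, SE 0.45, adjusted p = 0.999). Only the wild-type groups were apart, with RNAi repeat 1 the highest. *sid-3*, a tyrosine kinase gene needed for import of double-stranded RNA into cells, had 216, 318, 200.1 and 244 against 327, 379.9, 389 and 344 in polyQ35-YFP worms (log2 fold change -0.57, adjusted p = 0.0938, blocked 0.0189) and 316, 271 and 282 against 328, 248 and 319 in wild-type worms (-0.03; difference -0.54, SE 0.23, adjusted p = 0.999). All polyQ35-YFP RNAi values of *sid-3* were below the EV values there, while the wild-type groups overlapped. *aqp-1* had a smaller fall in polyQ35-YFP than in wild-type worms (difference 0.91, SE 0.36, adjusted p = 0.999). For *dct-17* (30.1, 29.1, 46.1 and 27.6 against 39.4, 21.3, 34.3 and 20.1 in polyQ35-YFP worms) and *F20G2.5* the differences were -0.95 and -1.18 (SE 0.43 and 0.53), both at an adjusted p of 0.999.

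Other annotation terms divided the members unevenly. Over all genes, 0.772% rose and 1.47% fell in polyQ35-YFP worms, and 7.50% rose and 6.13% fell for wild type. Of the 37 members that also hold the term membrane raft, 1 of 37 rose in polyQ35-YFP worms, with a median log2 fold change of 0.43, while for wild type 12 of 35 listed rose and 1 fell, with a median of 0.73. The 36 genes of the raft term that are not members had 1 up, 1 down and a median of 0.08 in polyQ35-YFP worms, and 4 up, 2 down and 0.05 for wild type. At the other end, limma called 0 of the 17 members with protein kinase activity listed for polyQ35-YFP (median -0.12) and 0 of 19 for wild type (median 0.02), with 1 up and 3 down at an unadjusted p under 0.05 in each strain. At that level 7.44% of all genes were up and 8.08% down in polyQ35-YFP worms, and 14.5% up and 13.2% down for wild type. edgeR called 0 of these kinases for polyQ35-YFP and 1 for wild type (*F23C8.7*, up), and DESeq2 called 1 (*sid-3*, down) and 0. The members with neither term, raft or kinase, had 4 up and 2 down of 121 in polyQ35-YFP worms (median 0.28) and 27 up and 3 down of 121 for wild type (median 0.47). Of the members also annotated to defence against Gram-negative bacteria, 0 rose and 1 fell of 43 in polyQ35-YFP worms by limma and by edgeR (9 up and 5 down at an unadjusted p under 0.05, and 2 up and 1 down by DESeq2), and 10 rose and 2 fell of 42 for wild type, where 7.50% of all genes rose and 6.13% fell. Of the 10 for Gram-positive bacteria, limma and edgeR called 0 in polyQ35-YFP worms (1 up and 3 down at an unadjusted p under 0.05, and *skpo-1* down by DESeq2), while for wild type 3 rose (*clc-1*, *drd-50* and *F35E12.5*) and 1 fell (*skpo-1*). The 57 members with no further term than membrane terms, which include *T24B8.5*, *zip-10* and *C32H11.4*, had 12 up and 1 down of 56 in wild-type worms, with 51 values above 0.

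**Figure D4:**
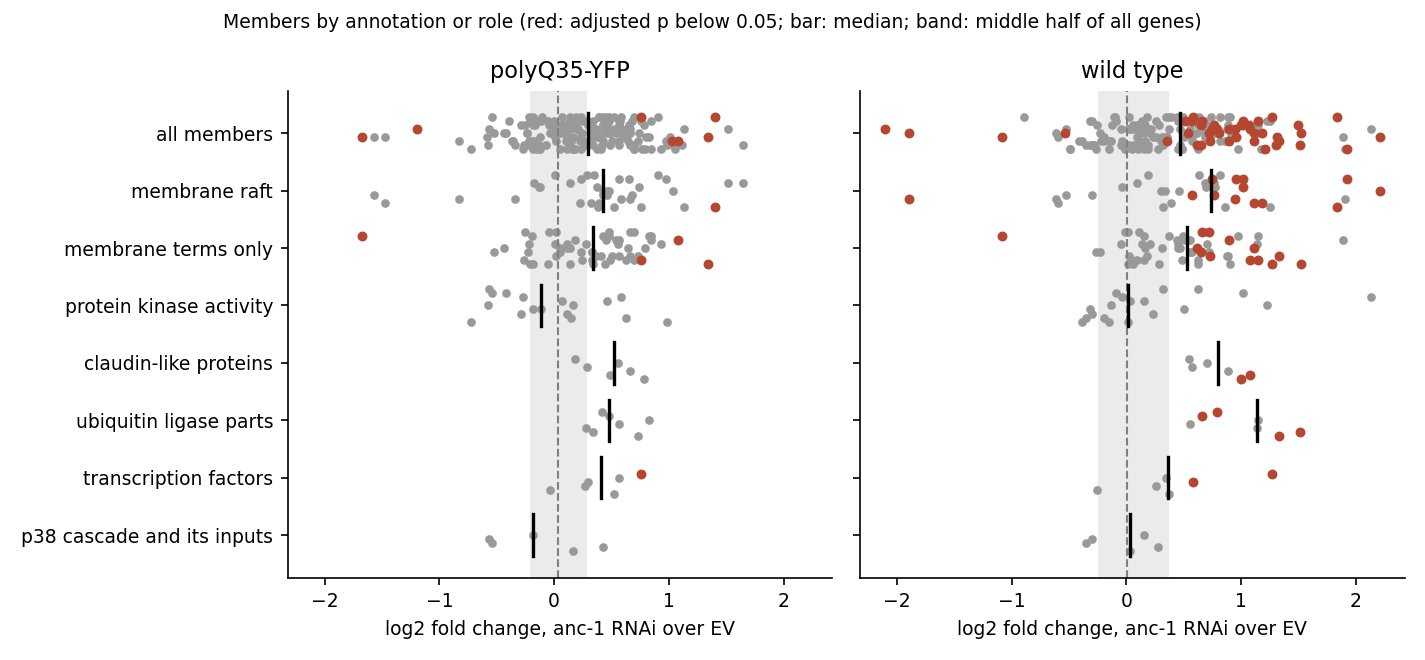
Log2 fold change of *anc-1* RNAi over EV (horizontal axis) of each member, grouped by annotation term or role (rows), in polyQ35-YFP worms (left) and wild-type worms (right); red points were called, black bars are group medians, the grey band holds the interquartile range of all genes and the dashed line their median. The raft members of wild-type worms centre on 0.73 and the kinases on 0.02.

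Roles were sorted after the values were seen, and are given as counts. Of the members grouped as the p38 cascade and its inputs, *nsy-1*, *sek-1* and *pmk-1* encode the 3 kinases of the cascade and *dkf-2* a protein kinase D that acts on it. The group also held *fshr-1*, a glycoprotein hormone receptor relative that the fixed lists place with the receptors and not in the p38 list. limma called 0 of the 5 in either strain, as did edgeR and DESeq2, with 2 down at an unadjusted p under 0.05 in each. At that level 8.08% of all genes were down in polyQ35-YFP worms and 13.2% in wild-type worms. *pmk-1* had 485, 523, 373 and 327 normalized reads in polyQ35-YFP RNAi worms, against 626, 604, 748 and 527 in EV worms (log2 fold change -0.57, SE 0.17, adjusted p = 0.117, blocked 0.0198), and 472, 416 and 539 in wild-type RNAi worms, against 577, 624 and 551 in EV worms (log2 fold change -0.30, SE 0.12, adjusted p = 0.116). Each RNAi sample was below each EV sample in both strains, although the test was passed only with the block in polyQ35-YFP worms. *nsy-1* had 284, 322, 308 and 208 against 350.1, 438, 569 and 302 in polyQ35-YFP worms (log2 fold change -0.54, SE 0.20, adjusted p = 0.212, blocked 0.0198) and 242, 206 and 294 against 335, 341 and 267 in wild-type worms (log2 fold change -0.35, SE 0.15, adjusted p = 0.143). Its groups overlapped in both strains, as did those of *sek-1* (-0.18 in polyQ35-YFP and 0.16 in wild-type worms), *dkf-2* (0.16 and 0.03) and *fshr-1* (0.43 and 0.28). The gene models of *nsy-1* and *sek-1* overlap others on the opposite strand.

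The wider p38 list of 18 listed genes, most of them not members, had 4 up in wild-type worms and 0 called in polyQ35-YFP worms by limma, edgeR or DESeq2 (1 up and 3 down at an unadjusted p under 0.05). Of all genes, 7.50% rose in wild-type worms, and at the unadjusted level 7.44% were up and 8.08% down in polyQ35-YFP worms. *rack-1*, a scaffold protein, had 2617 to 2772 normalized reads under *anc-1* RNAi, against 1471 to 1877 in EV worms (log2 fold change 0.70, SE 0.10, adjusted p = 1.58e-04). *vhp-1*, a phosphatase that acts against the MAP kinases, had 2455 to 2689 normalized reads under *anc-1* RNAi, against 1377 to 1843 in EV worms (log2 fold change 0.62, SE 0.11, adjusted p = 0.00107). Both were apart in all wild-type samples. *tir-1*, the adaptor upstream of NSY-1, rose by 0.42, adjusted p = 0.0163, and *nipi-3*, a Tribbles-like kinase, by 0.41, adjusted p = 0.0257, on the log2 scale. In polyQ35-YFP worms the same 4 genes had log2 fold changes of 0.54, 0.20, -0.03 and 0.25. Other genes of the list were not called by limma in either strain, although edgeR and DESeq2 both called *pmk-3* up in wild-type worms (limma adjusted p = 0.0518, blocked 0.0379): the p38 kinases *pmk-2* (-0.60 in polyQ35-YFP and 0.14 in wild-type worms) and *pmk-3* (-0.03 and 0.58), the transcription factors *atf-7* (-0.16 and -0.13) and *skn-1* (0.07 and -0.04), the protein kinase C gene *tpa-1* (0.17 and 0.37), the phospholipase genes *egl-8* (-0.02 and 0.02) and *plc-3* (-0.27 and 0.22), the G protein gene *gpa-12* (0.11 and 0.03), the MAP3K gene *mom-4* (-0.18 and -0.23) and *olrn-1* (-0.59 and 0.20).

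In the TGF-beta pathway, *sma-3* (chromosome III, 6860963 to 6863969), the SMAD that carries the signal to the nucleus, had 45.5, 31.1 and 35.7 normalized reads in wild-type RNAi worms, against 12.6, 23.04 and 17.1 in EV worms (log2 fold change 1.07, SE 0.31, adjusted p = 0.0263), and 38.5, 26.8, 32.9 and 34.3 against 40.6, 22.6, 42.1 and 16.8 in polyQ35-YFP worms (log2 fold change 0.20, SE 0.31, adjusted p = 0.819). Only the wild-type groups were apart, and the call was lost in 4 of 6 omissions (adjusted p up to 0.115, without RNAi repeat 1). The ligand gene *dbl-1* had 35.2, 30.2 and 24.2 against 17.2, 15.8 and 21.4 in wild-type worms (0.69, adjusted p = 0.140), and the receptor gene *sma-6* -0.09 (0.859). Of the insulin pathway members, the peptide gene *ins-11* was listed for wild type only (0.62), the PI3 kinase gene *age-1* had 0.13 in polyQ35-YFP and -0.28 in wild-type worms, and the kinase genes *akt-1* and *akt-2* had 0.15 and 0.11 in polyQ35-YFP and -0.19 and 0.23 in wild-type worms. limma, edgeR and DESeq2 called 0 of the 4, with 1 down in wild-type worms at an unadjusted p under 0.05. Of all wild-type genes, 13.2% were down at that level. Among 6 transcription factor genes, *zip-10* was called in both strains and *pqm-1* in wild-type worms. Of all genes, 0.772% rose in polyQ35-YFP and 7.50% in wild-type worms. *pqm-1* (chromosome II, 11150335 to 11152600), a zinc finger factor that responds to paraquat, had 222, 184 and 207 against 135, 132 and 139 (log2 fold change 0.59, SE 0.15, adjusted p = 0.0127), with tight and separate groups, but was not called without RNAi repeat 1 or EV repeat 2 (adjusted p = 0.0624 and 0.055). Because the gene model of *pqm-1* overlaps *arrd-6* on the opposite strand, its value is uncertain. The factors *fos-1* (0.37), *sox-4* (0.35), *klf-3* (0.26) and *hsf-1* (-0.26) were not called in wild-type worms.

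The 6 claudin-like members, which encode small membrane-spanning proteins of cell junctions, were all higher in wild-type RNAi samples. Their RNAi and EV groups did not overlap for any of the 6, and their log2 fold changes were 0.55 to 1.08, but 2 passed the test, where 15.8% of all wild-type genes were higher without overlap and 7.50% rose. *clc-1* had 308, 272 and 421 normalized reads in wild-type RNAi worms, against 163, 129 and 206 in EV worms (log2 fold change 1.00, SE 0.18, adjusted p = 0.00118), and 335, 309, 346 and 218 against 293, 134, 203 and 111 in polyQ35-YFP worms (log2 fold change 0.78, SE 0.26, adjusted p = 0.159, blocked 0.00865). *T24C4.4* (*clc-19*) had 84.1, 148 and 167 against 51.6, 53.3 and 78.1 in wild-type worms (log2 fold change 1.08, SE 0.24, adjusted p = 0.00610). *T24C4.4* is an opposite-strand neighbour of *T24C4.8* (*clc-20*), so reads may have been shared. The others were *vab-9* (0.58, adjusted p = 0.0952), *T24C4.8* (0.88, adjusted p = 0.216), *Y34F4.1* (*clc-23*, 0.71, adjusted p = 0.0608) and *Y34F4.5* (*clc-26*, 0.55, adjusted p = 0.0515, blocked 0.0484), which passed with the block and with edgeR. The gene model of *Y34F4.5* overlaps *E_BE45912.2* on the same strand. In polyQ35-YFP worms the 6 log2 fold changes were 0.19 to 0.78, with overlapping groups.

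Of 7 members that encode parts of ubiquitin ligases, 4 rose in wild-type worms (7.50% of all genes did), and limma, edgeR and DESeq2 called 0 in polyQ35-YFP worms, where all 7 log2 fold changes were above 0 (0.28 to 0.83, none at an unadjusted p under 0.05). Besides *C10C5.2* and *F56D2.5*, the Skp1-related gene *skr-3* had 158, 158 and 185 normalized reads in wild-type RNAi worms, against 110.1, 89.1 and 89.8 in EV worms (log2 fold change 0.79, SE 0.17, adjusted p = 0.00347). The F-box gene *fbxa-60* had 339, 232 and 308 against 176, 148 and 235.2 (log2 fold change 0.66, SE 0.18, adjusted p = 0.0195). *skr-3* separated the groups, whereas in *fbxa-60* EV repeat 3 lay just above RNAi repeat 2, and its call was lost in 4 of 6 omissions (adjusted p up to 0.119, without EV repeat 2). *fbxa-59* (1.15, adjusted p = 0.0612, blocked 0.0456), *fbxa-105* (1.14, adjusted p = 0.247) and *fbxa-150* (0.55, adjusted p = 0.210) were not called without the block, and *fbxa-59* passed with it. F-box genes are a large family of similar copies, and reads may be split among them.

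Beside the calls of the next groups, 0.772% of all genes rose and 1.47% fell in polyQ35-YFP worms, and 7.50% rose and 6.13% fell in wild-type worms. Among the 8 channel and transporter genes only *aqp-1* was called, in both strains. Its relative *aqp-10* had -0.18 in polyQ35-YFP and 0.06 in wild-type worms on the log2 scale, with overlapping groups. The P-glycoprotein gene *pgp-1*, an exporter of toxic compounds, had 55.7, 39.1 and 74.0 normalized reads in wild-type RNAi worms, against 19.5, 39.4 and 29.9 in EV worms (log2 fold change 0.91, adjusted p = 0.0501, blocked 0.0375), and its groups overlapped by 1 sample. Of 7 redox and peroxisome genes, *skpo-1* fell and *maoc-1*, a peroxisomal enzyme of fatty acid breakdown, rose in wild-type worms, at 222, 207 and 274 against 163, 154 and 173 (log2 fold change 0.51, SE 0.15, adjusted p = 0.0316). Its groups were apart, but the call was lost in 5 of 6 omissions (adjusted p up to 0.14, without RNAi repeat 3). The gene model of *maoc-1* overlaps *E04F6.6* on the opposite strand, so its value is uncertain too. The succinate dehydrogenase gene *mev-1* (-0.10) and the glutathione peroxidase gene *gpx-1* (0.14) were not called.

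A list of infection response genes, members and others, gave 1 up and 2 down of 23 listed for polyQ35-YFP, with a median log2 fold change of 0.34, and 9 up and 2 down of 21 listed for wild type, with a median of 0.18. Of all genes, 0.772% rose and 1.47% fell in polyQ35-YFP worms, and 7.50% rose and 6.13% fell for wild type. In wild-type worms the risers were *F35E12.5*, *ZK6.11*, *T24B8.5*, *C17H12.8*, *K08D8.4*, *hpo-6* and *dct-17* among members, and *thn-2* and *F55G11.4* among other genes. *C32H11.4* and the non-member *F53A9.8* fell in both strains: *F53A9.8* had 40.8 to 60.2 normalized reads in polyQ35-YFP worms under *anc-1* RNAi, against 125 to 153 in EV worms (log2 fold change -1.38, SE 0.19, adjusted p = 0.00316) and 88.6 to 134 normalized reads in wild-type worms under *anc-1* RNAi, against 237 to 309.7 in EV worms (log2 fold change -1.23, SE 0.17, adjusted p = 1.11e-04). Not every member of the list rose. *F08G5.6* (*irg-4*) had 20.7, 15.2, 14.5 and 15.2 against 71.9, 28.2, 16.6 and 22.6 in polyQ35-YFP worms (-0.83, adjusted p = 0.323) and 6.82, 0.888 and 11.5 against 4.59, 9.09 and 10.7 in wild-type worms (-0.61, adjusted p = 0.576), with overlap in both. *irg-2* had 0.44 and 0.90 in polyQ35-YFP and wild-type worms, and *irg-1*, read at 0.952 to 4.70 against 0 to 4.64 normalized reads in polyQ35-YFP worms, was not listed for wild type.

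Members often lay side by side, which was examined after their values were seen. With starts no more than 20000 bases apart, 8 runs held 3 or more members. The longest, on chromosome V from 13722233 to 13751921 (WBcel235), held *F35E12.2*, *dct-17*, *F35E12.6*, *F35E12.5*, *F35E12.9*, *F35E12.10* and the CUB-like gene *cld-9*. All 7 had wild-type log2 fold changes above 0 (0.19 to 1.92, median 1.02), and *dct-17*, *F35E12.5* and *F35E12.10* rose. Values above 0 were held by 137 of all 175 wild-type members and 6081 of all 12061 genes. Of these genes 7.50% rose. *F35E12.10* had 152, 91.4 and 156 normalized reads in wild-type RNAi worms, against 70.0, 46.1 and 79.1 in EV worms (log2 fold change 1.02, SE 0.24, adjusted p = 0.00754), and its call was lost without EV repeat 2 (adjusted p = 0.0548). In the middle of the run *F35E12.6*, with the most reads of the 7, had 327, 319 and 391 against 288, 310.4 and 306 (log2 fold change 0.19, SE 0.13, adjusted p = 0.365), so that the groups were apart but close. The polyQ35-YFP values of the run were 0.23 to 1.51 (median 0.56), with 0 called by limma, edgeR or DESeq2 and 2 at an unadjusted p under 0.05. At that level 7.44% of all genes were up.

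Further along chromosome V, *F20G2.5*, *F53C11.1* and *F53C11.3* (13771508 to 13784515) had wild-type log2 fold changes of 2.21, 1.11 and 0.10, the first 2 called. Of all wild-type genes 7.50% rose and 6.13% fell. Values above 0 were held by 129 of 175 members and 6568 of 12173 genes in polyQ35-YFP worms, and by 137 of 175 and 6081 of 12061 in wild-type worms. On chromosome IV, *C17H12.8*, *C17H12.6*, *H20E11.3*, *H20E11.2* and *H20E11.1* (6818606 to 6833440) were all above 0 where listed, at 0.37 to 1.65 in the polyQ35-YFP strain and 0.68 to 0.94 in wild type. *C17H12.6* had 157, 149 and 269 normalized reads in wild-type RNAi worms, against 75.7, 97.0 and 118.7 in EV worms (log2 fold change 0.94, SE 0.22, adjusted p = 0.00733), and was called in polyQ35-YFP worms with the block (0.59, adjusted p = 0.112, blocked 0.0417). Near the left end of chromosome IV, *C34H4.2* and *hpo-6* rose in wild-type worms within a run of 6, in which *Y41D4B.17* stood at -0.30. *C34H4.2* had 114, 123 and 125 against 73.4, 41.8 and 67.4 (log2 fold change 1.01, SE 0.21, adjusted p = 0.00358). Another run of the chromosome, 12907469 to 12923292, was mixed: *K08D8.4* rose in wild-type worms, *C32H11.4* fell in both strains, and *K08D8.5* between them had 43.2, 26.6 and 35.7 against 31.0, 37.0 and 39.6 in wild-type worms (-0.05, adjusted p = 0.940).

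**Figure D5:**
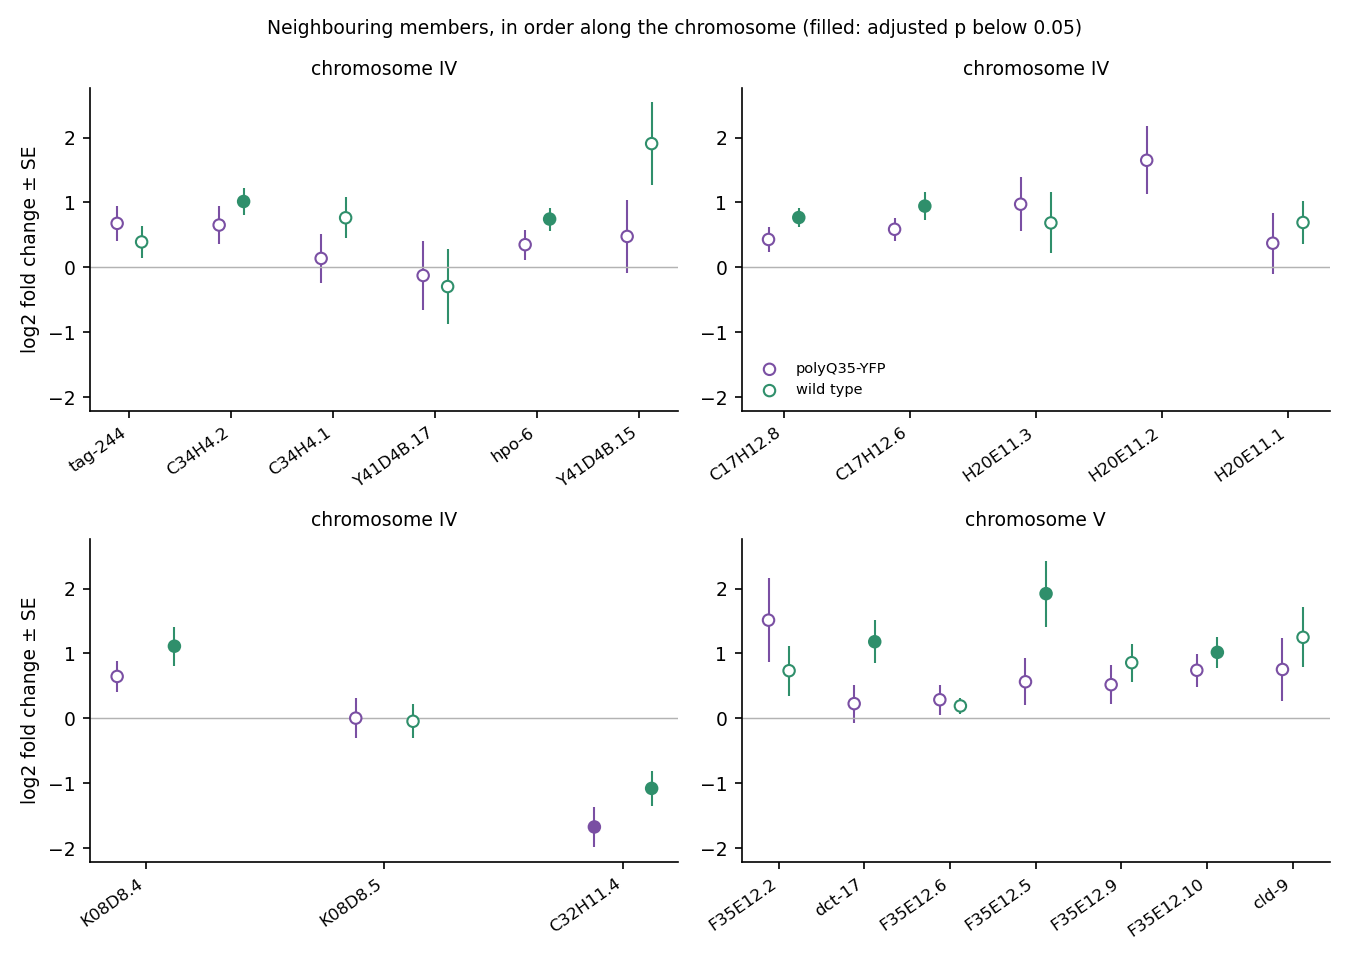
Log2 fold change of *anc-1* RNAi over EV, with its standard error (vertical axes), for the neighbouring members of 4 runs in their order along the chromosome, in polyQ35-YFP worms (purple) and wild-type worms (green); filled points were called. The 7 members of the chromosome V run are above 0 in both strains, while in the run from *K08D8.4* to *C32H11.4* the end genes moved in opposite directions.

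Of the 5 members with the most reads in EV worms of each strain, 4 were the same in both strains. The others were *C08E8.4* in polyQ35-YFP worms (log2 fold change 1.116 there) and *C17H12.8* in wild-type worms (0.77 there). *Y43F8B.2*, annotated to muscle dense bodies and overlapping *Y43F8B.3* on the opposite strand, had 7767, 9060.2, 6822 and 4938 normalized reads in polyQ35-YFP RNAi worms, against 8186, 8106, 9440.3 and 4619 in EV worms (log2 fold change -0.07, SE 0.22, adjusted p = 0.919), and 6262, 6726 and 7682 against 5012, 5443 and 5634 in wild-type worms (log2 fold change 0.36, SE 0.10, adjusted p = 0.0177). Only the wild-type groups were apart, and the call was lost in 3 of 6 omissions (adjusted p up to 0.0938, without RNAi repeat 3). The heat shock factor gene *hsf-1* had 2194, 2307, 2258 and 2530.2 against 1923, 2323, 2447 and 2947 in polyQ35-YFP worms (log2 fold change -0.04, SE 0.14, adjusted p = 0.930) and 1472, 1561 and 1580.0 against 1748, 2045 and 1742 in wild-type worms (log2 fold change -0.26, SE 0.10, adjusted p = 0.0949). All wild-type RNAi values of *hsf-1* were below the EV values, short of the test. The inorganic pyrophosphatase gene *pyp-1* (0.19 in polyQ35-YFP and 0.05 in wild-type worms) and *akt-1* (0.15 and -0.19) overlapped between groups in both strains.

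RNA of some tissues moved with the treatment as well. Beside the calls given here, 0.772% of all genes rose and 1.47% fell in polyQ35-YFP worms, and 7.50% rose and 6.13% fell in wild-type worms. The 8 body wall muscle markers summed to 73297 to 95759.6 normalized reads in polyQ35-YFP RNAi worms, against 50286 to 61635 in EV worms, and to 20209 to 25177 in wild-type RNAi worms, against 15192 to 15685 in EV worms, and 4 of the 8 rose in polyQ35-YFP and 7 in wild-type worms. The list holds *unc-54*, whose promoter drives the transgene of the polyQ35-YFP strain. Whether transgene reads were counted as *unc-54* was not tested, so the polyQ35-YFP sum is uncertain as a measure of muscle RNA. The 24 germ line, oocyte and embryo markers summed to 177469 to 210013 in wild-type RNAi worms, against 214725 to 259192 in EV worms (1 up, 5 down), and overlapped in polyQ35-YFP worms (194076 to 257235 against 191082 to 320431, 0 up, 2 down). Of 6 yolk protein genes, expressed in the gut, 5 rose in wild-type worms (sums 107061 to 141555 against 76196 to 93670.1), while limma, edgeR and DESeq2 called 0 in polyQ35-YFP worms, where 4 were up at an unadjusted p under 0.05 (sums 74999.8 to 152051 against 65535 to 95062). The 9 gut cell markers listed overlapped between groups in both strains (4309 to 5552 against 3878 to 4871 in polyQ35-YFP worms with 1 up, 4776 to 6019 against 5067 to 5259 in wild-type worms with 2 up). Epidermis markers (1180.5 to 1230.5 against 960.2 to 1037) and pharynx markers (115 to 197 against 52.7 to 112) were apart in wild-type worms, with 1 up and 1 down of 7 and 1 up of 6, and overlapped in polyQ35-YFP worms (1149 to 1509 against 1123 to 1531 for epidermis and 51.3 to 243 against 76.4 to 165 for pharynx). Neuron markers overlapped in both strains (9369.9 to 10919.9 against 8329.9 to 11022 in polyQ35-YFP and 9354 to 10311 against 8712 to 10203 in wild-type worms). Of these 9 markers, edgeR and DESeq2 each called *unc-64* up and *unc-119* down in wild-type worms, and 0 in polyQ35-YFP worms. The members themselves summed to 29422 to 38246 in polyQ35-YFP RNAi worms, against 27179 to 35415 in EV worms, and to 30267 to 34458 in wild-type RNAi worms, against 25702 to 27497 in EV worms. The part of these tissue differences in the members' values was not tested.

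The genes of the term that carry family names, set aside here, had 4 up and 0 down of 54 in polyQ35-YFP worms (median log2 fold change 0.23) and 11 up and 1 down of 54 for wild type (median 0.28). Among all genes, 0.772% rose and 1.47% fell in polyQ35-YFP worms, and 7.50% rose and 6.13% fell for wild type. The members had a larger spread between samples of a group than all genes, without matching for level: for those with a mean of 10 or more reads, the median SD of log2 values within groups was 0.388 for 146 polyQ35-YFP members, against 0.301 for 9566 genes, and 0.285 for 144 wild-type members, against 0.205 for 9430 genes. Of these, 86 members and 4076 genes in polyQ35-YFP, and 89 members and 4176 genes in wild type, had a mean of 10 to 100 reads. The part of level in this spread was not tested.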

How the data were processed

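RNA from whole day 6 adult worms of 4 groups (polyQ35-YFP *anc-1* RNAi and EV, n = 4 each, and wild-type *anc-1* RNAi and EV, n = 3 each) had been sequenced by CEL-Seq2. The authors trimmed reads with cutadapt 1.12, aligned them with TopHat2 2.1.1 to WBcel235, assigned them with HTSeq 0.6.1 to annotated coding genes, ignoring molecular identifiers, discarded genes with a mean under 2, and normalized with DESeq2 1.22.2 (versions from the submitters' processing notes). The signal values deposited by the authors are reads divided by a size factor, in a table per strain. The tables also hold the authors' own fold changes, Wald statistics and p-values, which were not used. PCR copies were counted, so that reads are not independent molecules, and whether strand was used in counting is not given in the sources used here.

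Expressed in units of what 1 read is worth in each library, the values were whole reads for 100% of entries (tolerance 0.01). The fit was limma 3.58.1 (R 4.3.3) with a variance trend on log2(value + 1), per strain, without a block, with Benjamini-Hochberg adjustment over 12173 genes in polyQ35-YFP and 12061 in wild type, and with both strains in 1 fit for their difference (11751 genes). On the recovered reads, edgeR 4.0.16 called 80 genes up and 169 down in polyQ35-YFP and 993 up and 674 down in wild type, against 94, 179, 905 and 739 by limma. Tests were tried on simulated data. Alternatives were pseudocounts of 0.5 and 5, a minimum mean of 10, no variance trend, library-size scaling, edgeR, DESeq2 1.42.0, the repeat as a block and omission of each sample. Omission of both repeat 4 samples of polyQ35-YFP was added after seeing the data. Both treatments were part of every repeat in the series' design, and same-numbered samples deviated from their group means with r of 0.215, 0.0949, 0.122 and 0.570 in polyQ35-YFP repeats 1 to 4 (9566 genes) and 0.0491, 0.0806 and 0.0740 in wild-type repeats 1 to 3 (9430 genes). Differently numbered samples had r of -0.469 to 0.271 in polyQ35-YFP and -0.108 to 0.0353 in wild type, and polyQ35-YFP RNAi repeat 2 had a higher r with EV repeats 1 (0.271) and 3 (0.146) than with EV repeat 2. The numbers were taken as pairs from the design, not from these values. Replicates of a group differed beyond counting noise (lowest chi-square per degree of freedom 6.48).

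The members and gene lists were chosen with earlier results of these data known. Named are *anc-1*, the members called in both strains, the 12 highest and the 8 lowest log2 fold changes among members called in wild type, the 5 with the largest change among those called in polyQ35-YFP only (there were 0), the 5 with the highest mean EV value in each strain, the 5 with the lowest p in the strain difference, the p38 list, and called members of other lists. Roles, runs and the other genes named with them were chosen after their values were seen. Genes were matched by identifier: 8 names had turned into dates, and 12355 of 12483 identifiers were in the annotation used for positions and overlaps. Of the members, 28 overlap a coding gene on the opposite strand. Of the other lists fixed, ERK and JNK kinases gave 0 up and 0 down of 9 in polyQ35-YFP and 1 up of 10 in wild type, TGF-beta 0 of 9 and 2 up of 9, Toll and receptors 0 of 10 in both, transcription factors of the infection response 1 up of 16 and 4 up of 16, and antiviral genes 0 of 10 and 1 up, 1 down of 10. In the lists with 0 called, genes at an unadjusted p under 0.05 numbered 0 in polyQ35-YFP, except 2 antiviral genes down, and 1 Toll or receptor gene down in wild type. edgeR called 0 in these lists as well, and DESeq2 called 2 antiviral genes down in polyQ35-YFP and 1 Toll or receptor gene down in wild type. By limma, 0.772% of all genes rose and 1.47% fell in polyQ35-YFP, and 7.50% rose and 6.13% fell in wild type. Values were not divided by gene length, since 3′ ends were read. No promoter or protein sequences were used here.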

Additional observations from a re-analysis of the deposited data

Results flagged for a closer look

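Chance marks about 1 in 20 groups of samples by the test used here, a gap between 1 extreme sample and its nearest neighbour that exceeds Dixon's 95% critical value as a share of the range in a group of 4. The 36 named members gave 72 such groups in polyQ35-YFP worms, and 2 were marked. *C29F9.3* had 90.4 normalized reads in polyQ35-YFP *anc-1* RNAi repeat 4, against 133 to 138 in the other RNAi repeats. *dct-17* had 46.1 in polyQ35-YFP *anc-1* RNAi repeat 3, against 27.6 to 30.1 in the other RNAi repeats. The median of the members in polyQ35-YFP *anc-1* RNAi repeat 4 was -0.00155 log2 units from the EV mean, against 0.344 to 0.368 in the other RNAi repeats. The EV sample of the same repeat was also the lowest of its group, at -0.31.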

How the results depend on the processing

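The direction of the members' median was above 0 in both strains under every alternative run. Wild-type counts of members stayed within 1.5 times of 39 up and 4 down, except without the variance trend (9 and 1, with 329 and 155 over all genes) and down without EV repeat 1 (2). The polyQ35-YFP counts moved with most settings. Members up were 3 with a pseudocount of 0.5, 0 without the trend or with library-size scaling, 1 with edgeR and 11 with the repeat as a block, and members up in both strains were 3, 0, 0, 1 and 11 in the same settings. Members down were 0 without the trend (also 0 down in both), 4 with DESeq2 and 6 with the block. All genes up and down in polyQ35-YFP were 1 and 6 without the trend, 32 and 94 with library-size scaling, 203 and 398 with DESeq2, 466 and 524 with the block, and 325 and 463 without both repeat 4 samples. Over all genes, strain differences called were 0 with a pseudocount of 0.5, the filter, no trend or library-size scaling, 2 with DESeq2, 6 with the block and 13 without both repeat 4 samples. The cause of these moves was not tested.

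With 1 sample left out, members up were 0 to 7 in polyQ35-YFP and 26 to 41 in wild type, members down 0 to 5 and 2 to 5, members up in both strains 0 to 7 and down in both 0 to 2. All genes up were 19 to 305 in polyQ35-YFP and 633 to 845 in wild type, all genes down 41 to 535 and 349 to 693, and strain differences called 0 to 6. For polyQ35-YFP members, 0 rose without RNAi repeat 1, 2 or 3 or EV repeat 2, and 2 without RNAi repeat 4 or EV repeat 3, while 0 fell without RNAi repeat 1 or EV repeat 2, 1 without RNAi repeat 3 and 5 without EV repeat 4. Members down in both strains were 1 without wild-type RNAi repeat 1, EV repeat 1 or EV repeat 3. The pairing by the block kept the 39 wild-type members up and 4 down and added 9 up and 1 down (*K12H4.7*). The matching count over all wild-type genes is not given here.

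Sign changes concerned only values that were not called. With 1 sample left out, log2 fold changes ranged in polyQ35-YFP from -0.61 to 0.19 for *F54B11.11*, -0.080 to 0.18 for *maoc-1*, -0.095 to 0.17 for *apm-1*, -0.10 to 0.070 for *egl-8*, -0.19 to 0.39 for *gpa-12*, -0.29 to 0.094 for *Y43F8B.2*, -0.27 to 0.21 for *tir-1*, -0.22 to 0.13 for *pmk-3*, -0.14 to 0.063 for *hsf-1*, -0.0052 to 0.31 for *vhp-1* and -0.040 to 0.39 for *sma-3*, and in wild type from -0.076 to 0.17 for *pyp-1*, -0.15 to 0.13 for *dkf-2*, -0.16 to 0.040 for *sid-3*, -0.090 to 0.14 for *egl-8*, -0.13 to 0.61 for *olrn-1*, -0.13 to 0.18 for *gpa-12* and -0.055 to 0.43 for *plc-3*. With library-size scaling *maoc-1* was -0.015 and *apm-1* -0.0027 in polyQ35-YFP, *gpa-12* was -0.0034 in wild type with edgeR, and without both repeat 4 samples *hsf-1* was 0.021, *egl-8* 0.032 and *sma-3* -0.059 in polyQ35-YFP. Of members with a mean under 10 reads, 0 of 29 were called by limma in polyQ35-YFP and 1 of 31, up, in wild type. Among all genes at that level, 0.192% and 1.75% rose. The part of depth in these counts was not tested.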
